A study of Mus musculus with 6 samples.

Results

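Immediate early genes of the T cell receptor response were examined as a set of 10 genes chosen by name, Egr1, Egr2, Egr3, Nr4a1, Nr4a2, Nr4a3, Fos, Fosb, Jun and Cd69, out of 22400 genes with a count in at least 1 of 6 libraries. All 10 passed the filter on low counts that kept 12925 genes for testing, and 9 of the 10 (all but Fosb) are also in the 11242 entries of the deposited gene-level table. Naive CD4+ T cells were taken from spleen and lymph nodes of C57BL/6 mice aged 8 to 10 weeks. Every mouse carried Cul5 fl/fl, the loxP-flanked allele of the ubiquitin ligase scaffold Cullin-5, and the WT group consisted of littermates with no CD4-Cre, so that the controls carry the floxed allele too. In the Cul5 cKO group the Cre recombinase is driven by CD4 regulatory elements, which delete the gene in T cells during their development. Both groups were cultured for 48 h under Th9 conditions, that is with plate-bound anti-CD3 (2 µg/ml), anti-CD28 (1 µg/ml), IL-4 (20 ng/ml), TGF-β (2.5 ng/ml) and a blocking antibody to IFN-γ (10 µg/ml). Each group has 3 libraries, numbered 1 to 3. The labels do not say whether a number stands for a separate mouse, so the p-values measure the spread between these libraries, which may be technical. No unstimulated or earlier sample is among the 6, so the values are levels at 48 h, and induction by the receptor was not measured.

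Immediate early genes are transcribed within minutes of receptor engagement, without new protein synthesis, by factors that calcium and the MAP kinase cascade activate. Their transcripts are short-lived, so that their level follows recent signalling more closely than that of most genes. In T cells the early growth response factors Egr2 and Egr3 also act as brakes on activation, Nr4a1 (Nur77) is widely used as a reporter of receptor signal strength, Fos and Jun proteins pair to form the AP-1 factor, and Cd69 is the classic early activation marker of the cell surface.

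The libraries held between 3944803 counts (WT replicate 3) and 23454552 counts (Cul5 cKO replicate 3), and the other 4 held at least 23111689 each. A floor of 3 counts equals 0.759 CPM (the counts of a gene relative to the size of its library, here scaled by edgeR's TMM method) in WT replicate 3 and from 0.128 to 0.133 CPM in the rest, which covers counting error only. Cul5 was at 64.4, 69.3 and 65.0 CPM in WT and at 10.6, 14.2 and 13.1 CPM in Cul5 cKO cells, so the targeted gene matched every label. The summed level of 6 T cell markers lay between 1418 and 1630 CPM in all 6 libraries. Replicate 1 of each genotype stood apart from replicates 2 and 3. Since these genes are among those that set it apart, they are given below first by replicate number and then by genotype.

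Of the 10 genes, 7 were lower in replicate 1 than in replicates 2 and 3 of both genotypes, by 2.79-fold (Cd69) to 70.7-fold (Egr3) in the fit. These were Egr1, Egr2, Egr3, Nr4a1, Nr4a3, Fosb and Cd69, and none was higher. Of all genes tested, 9.87% passed the same threshold, 5.68% as lower and 4.19% as higher in replicate 1. Over the 10 genes the median log2 difference was -1.80, against 0.0019 over all genes tested. The contrast was proposed with earlier results of these libraries known, so its p-values describe these libraries and are no independent evidence that the genes stand out. Both replicate 1 libraries lay below the other 4 for 8 of the 10 genes, the 7 above and Nr4a2, where 12.2% of all genes tested did so.

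**Figure D1:**
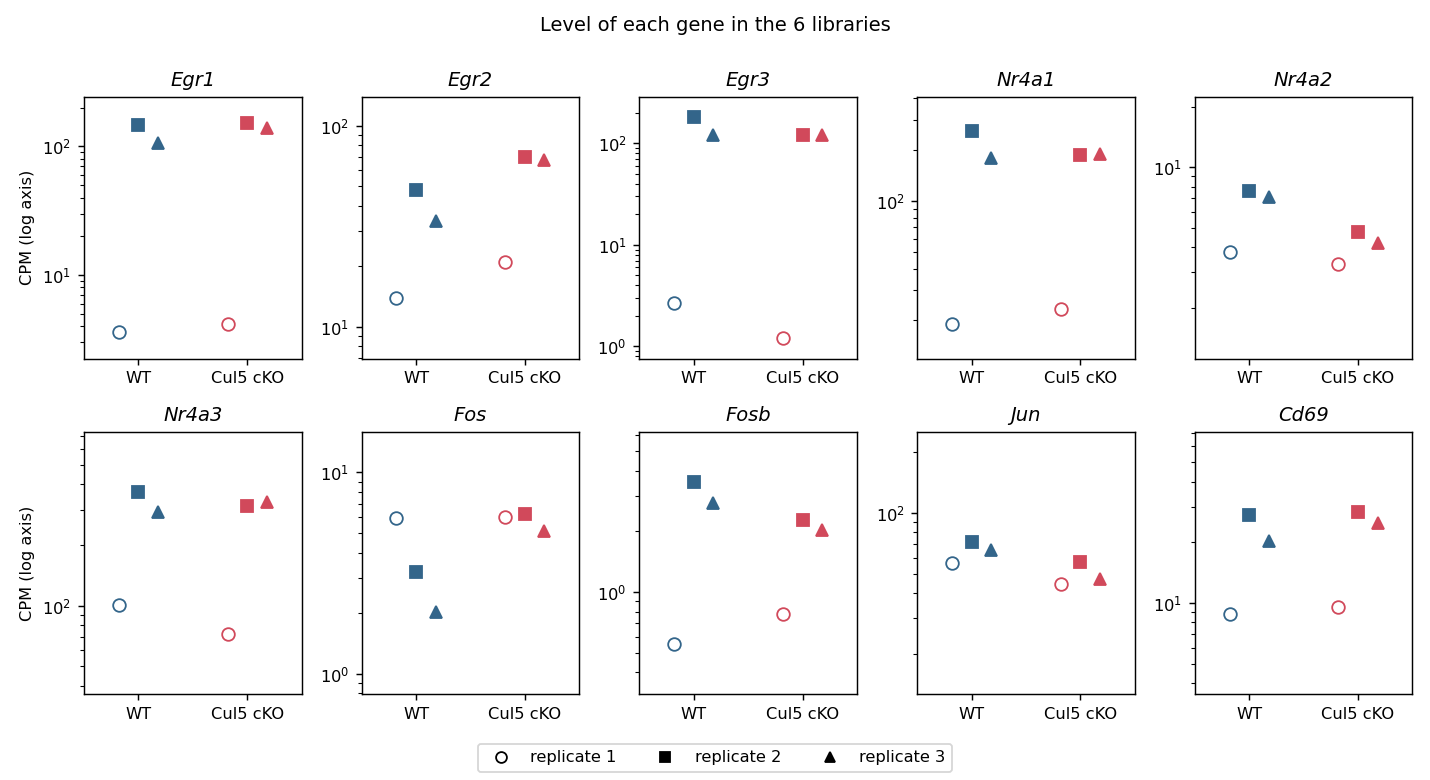
CPM of each of the 10 genes (log axis, scale set per panel and at least 20-fold tall) in the 3 WT and 3 Cul5 cKO libraries, with open circles for replicate 1, squares for replicate 2 and triangles for replicate 3. The open circles lie lowest within each genotype for every gene except Fos, and below all 4 other points for every gene except Fos and Jun, by the widest margin for Egr3 (2.69 and 1.22 CPM against 120 to 181 CPM).

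Among the early growth response genes, which encode zinc finger transcription factors, Egr1 was at 3.59, 148 and 105 CPM in WT replicates 1, 2 and 3 and at 4.13, 152 and 140 CPM in Cul5 cKO replicates 1, 2 and 3. Replicate 1 was thus far below both others in each genotype, 35.3-fold below their mean in WT and 35.3-fold in Cul5 cKO cells. The fitted log2 difference was -5.15 (SE 0.172, adjusted p = 4.24e-05, by Benjamini-Hochberg over the edgeR quasi-likelihood p-values of all genes tested, as for every adjusted p here unless another tool is named). Egr3 was at 2.69, 181 and 122 CPM in WT and at 1.22, 120 and 120 CPM in Cul5 cKO cells. Its replicate 1 values were 1.78% of the mean of the other replicates in WT and 1.01% in Cul5 cKO cells. They rested on 63 and 28 counts, of which 30.0% and 69.6% were assigned to a retained-intron transcript (ENSMUST00000223747). That share was 16.9% to 38.8% in the other libraries. For Egr3 as a whole the fitted log2 difference was -6.14 (SE 0.241, adjusted p = 7.24e-05). It was the lowest of all 8694 genes that averaged 10 CPM or more, and that of Egr1 was next to it. Egr2, a factor that restrains T cell activation and is needed for anergy, was at 14.0, 47.6 and 33.4 CPM in WT and at 21.0, 69.5 and 67.4 CPM in Cul5 cKO cells. Its difference was in the same direction and smaller, with a log2 value of -1.66 (SE 0.124, adjusted p = 0.000871). The 3 genes lie on chromosomes 18 (Egr1, 34859823 to 34864984), 10 (Egr2, 67535475 to 67542188) and 14 (Egr3, 70077203 to 70082614) of GRCm38.

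The Nr4a genes encode orphan nuclear receptors that bind DNA without a known natural ligand and dampen effector functions in T cells. Nr4a1 was at 19.1, 256 and 179 CPM in WT replicates 1, 2 and 3 and at 23.3, 187 and 188 CPM in Cul5 cKO cells. Its replicate 1 libraries stood 11.4-fold and 8.07-fold below the mean of the others, with a log2 difference of -3.26 (SE 0.181, adjusted p = 0.000408). Nr4a3, the most abundant of the 10 genes by CPM, was at 100.3, 367 and 293 CPM in WT and at 72.4, 314 and 327 CPM in Cul5 cKO cells. Replicate 1 was again lowest in both genotypes, and the log2 difference was -1.93 (SE 0.127, adjusted p = 0.000715). Nr4a2 had much lower levels, 3.80, 7.61 and 7.09 CPM in WT and 3.30, 4.78 and 4.22 CPM in Cul5 cKO cells. Both replicate 1 values lay below the other 4, but its log2 difference of -0.70 (SE 0.196, adjusted p = 0.0643) missed the threshold, and passed only with a filter of at least 10 counts in every library (adjusted p = 0.0445). On the rank scale of the 8694 genes, counted from the lowest difference, Nr4a1 was 5, Nr4a3 was 10, Egr2 was 19 and Cd69 was 28.

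Of the AP-1 genes among the 10, Fosb was lower in replicate 1 and Fos and Jun did not pass. Fos was at 5.94, 3.20 and 2.02 CPM in WT and at 5.99, 6.22 and 5.11 CPM in Cul5 cKO cells. It was the single gene of the 10 whose replicate 1 value was the highest in WT, while in Cul5 cKO cells replicate 1 lay between the other 2, and its log2 difference of 0.55 (SE 0.267, adjusted p = 0.234) did not pass. These levels rest on few counts, 8 of them in WT replicate 3. Fosb, which encodes a Fos paralog, was at 0.555, 3.50 and 2.78 CPM in WT and at 0.782, 2.28 and 2.05 CPM in Cul5 cKO cells, or from 11 to 81 counts. Its replicate 1 libraries were lowest in each genotype, with a log2 difference of -1.95 (SE 0.350, adjusted p = 0.0157), a call that was lost with the WT (adjusted p = 0.160) or the Cul5 cKO (adjusted p = 0.0562) library of replicate 1 left out, with WT replicate 2 left out (adjusted p = 0.0837) and with counts scaled from TPM (adjusted p = 0.0535). Jun was nearly even across the libraries, at 56.3, 71.9 and 65.3 CPM in WT and at 44.3, 57.0 and 46.9 CPM in Cul5 cKO cells. Its log2 difference was -0.26 (SE 0.0882, adjusted p = 0.102) and passed only without Cul5 cKO replicate 3 (0.0335). Jun shares exon sequence with the antisense gene Junos, and how the reads' strand was treated is not given in the sources used here.

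Cd69, a membrane protein that holds freshly activated lymphocytes in lymphoid tissue, followed the Egr and Nr4a genes. It was at 8.80, 27.4 and 20.2 CPM in WT and at 9.60, 28.4 and 24.9 CPM in Cul5 cKO cells, so that replicate 1 was at 36.9% of the mean of the others in WT and at 36.0% in Cul5 cKO cells. The log2 difference was -1.48 (SE 0.134, adjusted p = 0.00194).

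**Figure D2:**
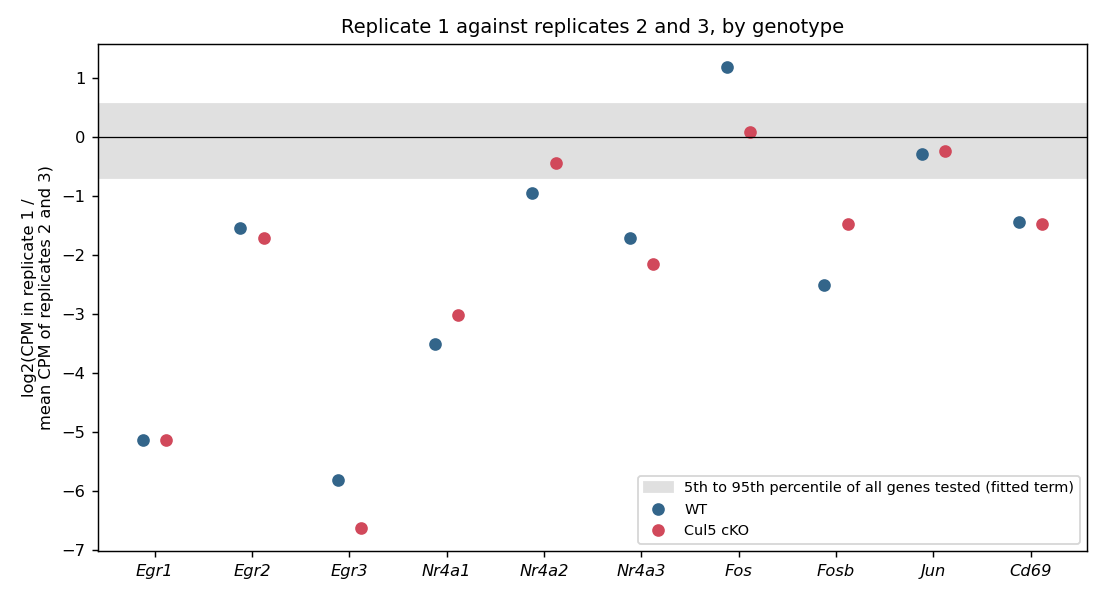
log2 ratio of CPM in replicate 1 to the mean CPM of replicates 2 and 3 for each gene, drawn for WT and for Cul5 cKO cells, with the grey band from the 5th (-0.70) to the 95th (0.55) percentile of the fitted term over all genes tested. Egr1 lies at -5.14 in both genotypes and Egr3 at -5.81 and -6.62, while both points of Jun lie inside the band.

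Because CPM favours long transcripts, the levels of the 10 genes were also set side by side as TPM (kallisto's share of each transcript after scaling to its length). In replicates 2 and 3 of both genotypes together (n = 4), Nr4a1 (mean 129 TPM, from 105 to 171) and Nr4a3 (125 TPM, from 110 to 146) overlapped each other and lay above all others. Egr3 (63.2 TPM, from 54.1 to 85.4), Egr1 (60.4 TPM, from 46.0 to 68.3), Egr2 (38.6 TPM, from 24.0 to 49.7), Jun (27.4 TPM, from 20.9 to 34.3) and Cd69 (24.5 TPM, from 20.4 to 28.6) followed, each overlapping the next. Nr4a2 (3.65 TPM), Fos (3.08 TPM) and Fosb (1.03 TPM) lay below these 7 and each overlapped its neighbour in the order. In the 2 replicate 1 libraries the order was different, with Nr4a3 (28.5 TPM) and Jun (23.01 TPM) at the top, Egr2 (14.8 TPM) and Nr4a1 (13.2 TPM) overlapping below them, and then Cd69 (9.47 TPM) and Fos (5.01 TPM). Egr1 (1.72 TPM) had moved there to a place beside Nr4a2 (1.52 TPM), and Egr3 (0.769 TPM) was above Fosb alone (0.268 TPM).

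Nr4a1 has transcripts with different first exons, and the replicate 1 libraries differed in the balance between them. Transcript ENSMUST00000228985 begins at base 101254269 of chromosome 15 and ENSMUST00000023779 at base 101266846, inside the first intron of the former. The upstream transcript was estimated at 13.3, 36.6 and 18.2 CPM in WT and at 17.4, 32.2 and 37.8 CPM in Cul5 cKO cells. The downstream transcript was estimated at 5.54, 216 and 160 CPM in WT and at 5.81, 151 and 148 CPM in Cul5 cKO cells. Replicate 1 was therefore lower by 2.07-fold in WT and 2.02-fold in Cul5 cKO cells for the upstream transcript, and by 33.9-fold and 25.7-fold for the downstream one. The upstream transcript took from 69.6% to 74.6% of the gene's estimated counts in replicate 1 and from 10.2% to 20.1% in the other 4 libraries, with no overlap. Reads that fit both transcripts were divided between them by kallisto's estimate, and their share is not given in the files. Nr4a1 was not the only one of the 10 genes with such a shift. Transcript ENSMUST00000127820 of Egr2 took 22.4% (WT) and 42.2% (Cul5 cKO) of that gene's estimated counts in replicate 1. In the other 4 libraries it took from 9.56% to 19.8%. The split was not tested across all transcripts.

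**Figure D3:**
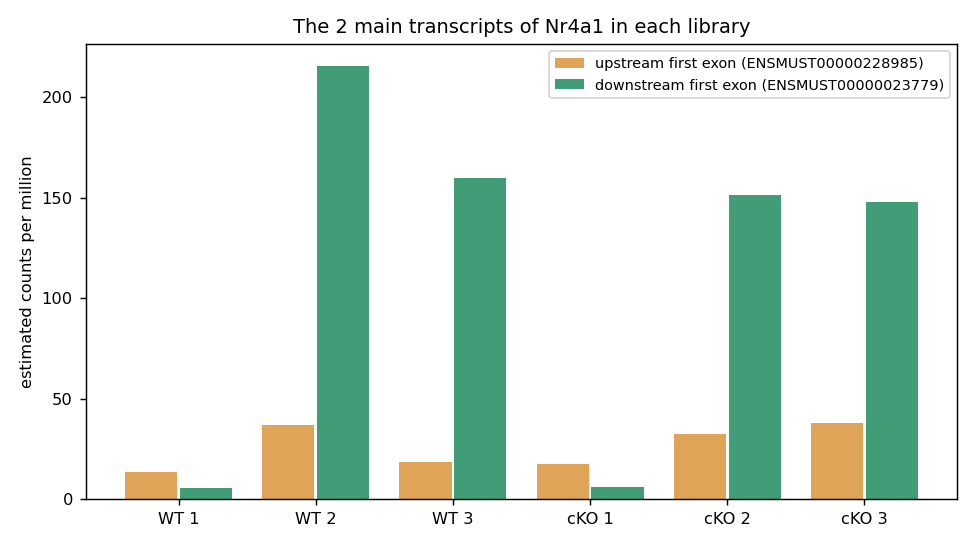
Estimated CPM of the 2 main transcripts of Nr4a1 in the 3 WT and 3 Cul5 cKO libraries, bars from 0. The transcript with the downstream first exon is the taller bar in replicates 2 and 3 (148 to 216 CPM) and the shorter one in replicate 1 (5.54 and 5.81 CPM).

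RefSeq windows of GRCm38.p6 before the annotated starts were available for 7 of the 10 genes (Egr2, Nr4a1, Nr4a2, Nr4a3, Fos, Fosb and Jun). They were searched on both strands for 6 short motifs of factors that act on immediate early genes or are encoded by them. The windows of 250 bases of Egr2 and Nr4a1 are shown because these genes were lower in replicate 1, that of Nr4a2 because it resembled them without passing the test, and those of Fos and Jun because they did not follow. Each is printed 5′ to 3′ along the gene, and the window of Nr4a1 is the one before its downstream start. Capitals mark TGACG (the core of the cAMP response element, CGTCA on the other strand), the CArG box of serum response factor and GCGNGGGCG (the recognition motif of Egr proteins).
Egr2, chr10:67537619-67537868, plus strand: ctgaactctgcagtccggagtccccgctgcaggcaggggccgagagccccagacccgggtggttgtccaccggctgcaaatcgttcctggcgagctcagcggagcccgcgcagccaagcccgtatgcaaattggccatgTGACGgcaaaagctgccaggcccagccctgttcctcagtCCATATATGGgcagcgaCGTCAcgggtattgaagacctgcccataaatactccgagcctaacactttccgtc
Nr4a1, chr15:101266596-101266845, plus strand: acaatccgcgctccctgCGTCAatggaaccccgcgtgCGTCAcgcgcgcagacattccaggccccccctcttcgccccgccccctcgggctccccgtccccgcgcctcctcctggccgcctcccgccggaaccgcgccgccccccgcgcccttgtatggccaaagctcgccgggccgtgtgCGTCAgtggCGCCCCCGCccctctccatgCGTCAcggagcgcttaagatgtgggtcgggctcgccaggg
Nr4a2, chr2:57124004-57124253, minus strand: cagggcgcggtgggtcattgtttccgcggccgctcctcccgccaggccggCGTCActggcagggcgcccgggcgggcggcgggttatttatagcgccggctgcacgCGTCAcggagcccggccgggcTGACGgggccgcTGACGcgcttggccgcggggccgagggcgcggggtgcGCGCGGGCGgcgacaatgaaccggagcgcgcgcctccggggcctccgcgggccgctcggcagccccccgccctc
Fos, chr12:85473640-85473889, plus strand: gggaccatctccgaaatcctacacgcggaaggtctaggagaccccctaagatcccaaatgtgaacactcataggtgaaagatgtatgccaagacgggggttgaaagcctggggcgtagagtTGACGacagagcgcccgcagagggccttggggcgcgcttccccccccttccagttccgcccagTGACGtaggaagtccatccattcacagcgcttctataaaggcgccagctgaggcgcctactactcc
Jun, chr4:95052223-95052472, minus strand: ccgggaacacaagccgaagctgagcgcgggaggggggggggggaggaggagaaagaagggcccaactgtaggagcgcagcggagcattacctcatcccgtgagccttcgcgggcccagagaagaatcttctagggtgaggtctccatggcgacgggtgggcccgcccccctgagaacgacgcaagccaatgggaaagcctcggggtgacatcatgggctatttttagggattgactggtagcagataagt

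The window of Nr4a1 holds TGACG 4 times and the Egr motif once, and so does that of Nr4a2. The window of Nr4a3 holds TGACG 4 times as well, but 152 of its 250 bases, with 1 of the 4 matches, lie inside the annotated exon of that gene's main transcript, which starts upstream of the RefSeq start, whereas Egr2 and Fos hold it 2 times, Fosb 1 time and Jun 0 times. Of 32851 windows of this length, 17.8% hold TGACG at least once and 0.137% hold it 4 times or more. The 7 windows are from 58.4% (Fos) to 80% (Nr4a2) G or C, and the shares over all windows were not matched for this. The CArG box was found in the window of Egr2 alone (1.47% of all windows hold one), and the Egr motif in those of Nr4a1, Nr4a2 and Fosb (4.7%). The full element TGACGTCA (1.55% of all windows), the AP-1 motif TGANTCA (6.75%) and the Nr4a motif AAAGGTCA (1.34%) were in none of the 7 windows. These are matches of fixed letter patterns within the 250 bases. Sites farther upstream and other spellings of a motif were not searched, and binding was not measured.

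Between genotypes, no gene of the 10 passed the threshold when the 3 WT and 3 Cul5 cKO libraries were compared directly. The counts were 0 of 10 in edgeR, which called 1.03% of all genes tested, and 0 of 10 in DESeq2, which called 693 of 12925. At such shares, 0 of 10 does not set these genes apart from the rest. At an unadjusted p under 0.05 there was 1 of 10 (Jun), where 21.3% of all genes passed that. The WT and Cul5 cKO libraries overlapped for every one of the 10, while they did not for 27.5% of all genes tested. The log2 fold changes of Cul5 cKO over WT ran from -0.56 (Nr4a2, SE 0.303, adjusted p = 0.333) to 0.74 (Egr2, SE 0.547, adjusted p = 0.475), with 4 genes higher and 6 lower. For Egr1 (0.22, SE 1.30), Egr3 (-0.33, SE 1.43) and Nr4a1 (-0.18, SE 0.954) the error was several times the value, and replicate 1, the low one, is in both groups.

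With a term for replicate 1 against replicates 2 and 3 in the fit, 2 of the 10 genes differed between genotypes, where 13.1% of all genes tested did (7.17% higher and 5.89% lower in Cul5 cKO cells). Egr2 was higher in Cul5 cKO cells, at a log2 difference of 0.66 (SE 0.111, adjusted p = 0.0145). Its level in Cul5 cKO over WT was 1.5-fold between the replicate 1 libraries and 1.69-fold between the means of replicates 2 and 3, where the 2 Cul5 cKO values (69.5 and 67.4 CPM) lay above both WT values (47.6 and 33.4 CPM). Jun was lower, at a log2 difference of -0.39 (SE 0.0836, adjusted p = 0.0269), or 0.786-fold between the replicate 1 libraries and 0.757-fold between the means of the others. Jun overlapped between the genotypes only through WT replicate 1 (56.3 CPM) and Cul5 cKO replicate 2 (57.0 CPM). A share of 2 in 10 is close to the background, and neither gene passed in the comparison without the term.

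The other 8 genes did not pass in that fit, and its errors were at most 0.307 on the log2 scale. Among those with the higher level in Cul5 cKO cells were Fos (log2 0.62, adjusted p = 0.158), Egr1 (0.18, adjusted p = 0.371) and Cd69 (0.12, adjusted p = 0.547). Nr4a2 (-0.54, adjusted p = 0.0890), Egr3 (-0.44, adjusted p = 0.116), Fosb (-0.29, adjusted p = 0.562), Nr4a3 (-0.19, adjusted p = 0.287) and Nr4a1 (-0.086, adjusted p = 0.728) had the lower level. The 3 Nr4a genes thus all had values below 0, and the 3 Egr genes were split. At an unadjusted p under 0.05 the count was 5 of 10, against 31.1% of all genes. In replicates 2 and 3 alone, Egr2 was the 1 gene of the 10 that passed (log2 0.70, adjusted p = 0.0404), against 8.83% of 13055 genes. There the genotypes did not overlap for 6 of the 10, namely Egr2, Egr3, Nr4a2, Fos, Fosb and Jun, and with 2 libraries a group that holds for 64.1% of all genes. Fos was at 3.20 and 2.02 CPM in WT replicates 2 and 3 and at 6.22 and 5.11 CPM in Cul5 cKO replicates 2 and 3, a 2.17-fold difference of the means, whereas the replicate 1 libraries were at 5.94 and 5.99 CPM.

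**Figure D4:**
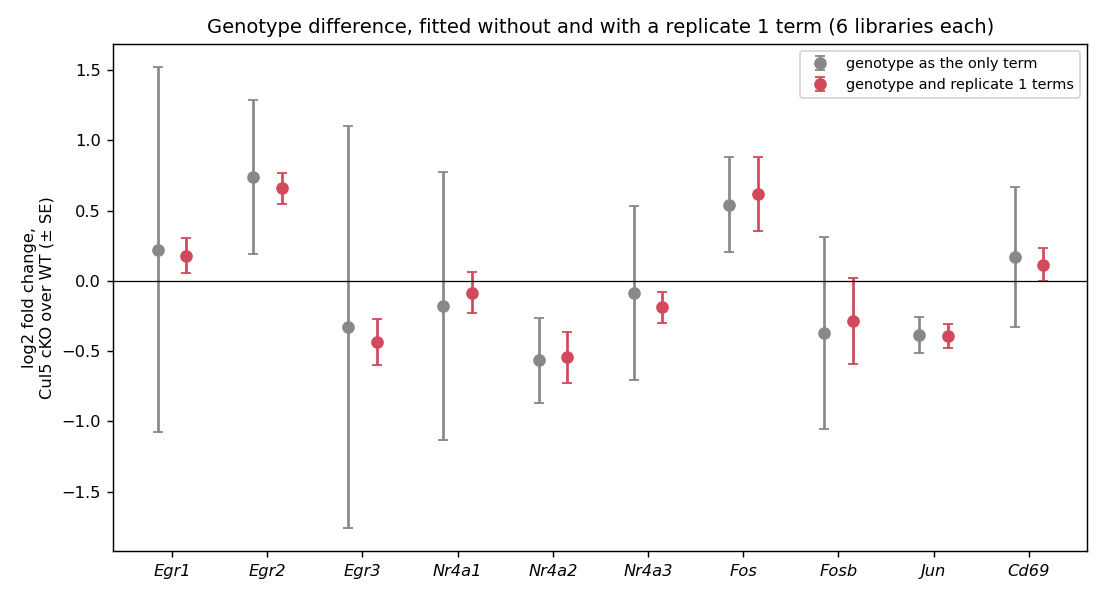
log2 fold change of Cul5 cKO over WT with its standard error for each gene, in grey from the fit with genotype as its only term and in red with the replicate 1 term added, 6 libraries in each. The error bar of Egr1 spans 1.30 each way in the first fit, and with the term Egr2 (0.66) and Jun (-0.39) are the 2 genes that pass.

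Whether the genotype difference itself was unequal between replicate 1 and the others was tested as an interaction. It passed for 0 of the 10 genes and 0.0% of all genes in edgeR, with adjusted p-values from 0.745 to 1.0 over the 10 genes. At an unadjusted p under 0.05 it held for 0 of the 10 and for 848 genes (6.56%) in all, and DESeq2 called 0 of the 10 and 8 genes in all. The largest values were those of Fosb (1.07, SE 0.609) and Fos (-0.99, SE 0.437) on the log2 scale. The fit leaves 2 residual degrees of freedom, so these p-values do not show that the genotypes behaved alike in replicate 1.

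Genes around the 10 were described from lists chosen by function. Over all genes tested, 5.68% were lower and 4.19% higher in replicate 1, and the counts of every list stand beside these shares. Of 9 other AP-1 genes, 6 were lower in replicate 1 (Junb, Mafk, Fosl2, Atf3, Maff and Fosl1) and none higher, with a median log2 difference of -0.77. Junb, which competes with Jun for Fos partners, was at 177, 319 and 261 CPM in WT and at 240, 407 and 435 CPM in Cul5 cKO cells (log2 -0.77, adjusted p = 0.00346). Atf3, a stress-induced factor of the same family, was at 2.18, 7.70 and 5.57 CPM in WT and at 7.90, 23.5 and 31.0 CPM in Cul5 cKO cells, with a log2 difference of -1.75 (adjusted p = 0.00239). Replicate 1 was lowest within each genotype for both genes.

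Between genotypes the other AP-1 genes had mostly higher levels in Cul5 cKO cells. None of the 9 passed in the comparison without the term in edgeR, where 1.03% of all genes tested did. At an unadjusted p under 0.05 there were 6, where 21.3% of all genes passed that. DESeq2 called Fosl2 and Batf3, and 693 of 12925 genes in all. The list and the replicate 1 term were chosen with earlier results of these data known. With the term 8 of the 9 rose in Cul5 cKO cells and none fell, where 7.17% of all genes rose and 5.89% fell. The median log2 fold change was 0.61 against -0.0050 over all genes. The 8 genes were Atf3 (1.92, adjusted p = 0.00131), Fosl1 (1.56, adjusted p = 0.0294), Fosl2 (1.0, adjusted p = 0.000814), Batf3 (0.99, adjusted p = 0.0348), Maff (0.61), Junb (0.50), Batf (0.40) and Mafk (0.32). Fosl1 rested on 10 counts in WT replicate 1 and 11 in WT replicate 3. Its level in Cul5 cKO over WT was 7.32-fold between the replicate 1 libraries and 2.17-fold between the means of the others. For Batf3 these were 1.35-fold and 2.65-fold, and the interaction passed for neither gene (adjusted p = 0.745 for both). Jund, which did not pass, was at -0.22 (adjusted p = 0.0572), on the same side as Jun. Batf and Batf3 pair with Jun proteins and IRF factors in T helper cells. Fos, Fosb and Jun, the AP-1 members of the 10, had values of 0.62, -0.29 and -0.39 in the same fit.

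Of 14 other immediate early genes, 12 were lower in replicate 1 and none higher, with a median of -0.53. The lowest was Egr4, a further early growth response gene, at 0.0427, 1.64 and 1.01 CPM in WT and at 0, 1.18 and 0.667 CPM in Cul5 cKO cells, where both replicate 1 values are under the floor. Zfp36 (log2 -1.34), which destabilizes cytokine mRNA, and Dusp2 (-1.30), a phosphatase that switches off MAP kinases, came next, followed by Gadd45b (-0.85), Nfkbiz (-0.64), Ier3 (-0.64), Btg2 (-0.61), Ier5 (-0.46), Per1 (-0.42), Csrnp1 (-0.41), Ier2 (-0.37) and Myc (-0.33). Klf6 (0.013) and Dusp1 (-0.060) did not pass. Between genotypes none of the 14 passed without the term, where 1.03% of all genes tested did. At an unadjusted p under 0.05 there were 3 of 14, close to the 21.3% of all genes. DESeq2 called Ier3 and Klf6, and 693 of 12925 genes in all. With the term 5 rose and 1 fell, where 7.17% of all genes rose and 5.89% fell. Ier3 rose most (1.22, adjusted p = 0.00381), and Btg2, which restrains proliferation, fell (-0.47, adjusted p = 0.0186).

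Of 9 partners and targets of Egr proteins, 4 were lower in replicate 1 and none higher, the ligase gene Cblb (-1.0), the inhibitory receptor gene Lag3 (-1.04) and the Egr co-repressors Nab1 (-0.37) and Nab2 (-0.38). Between genotypes none passed without the term, where 1.03% of all genes tested did. Dgka alone had an unadjusted p under 0.05, where 21.3% of all genes did, and DESeq2 also called it. With the term Cblb (-0.53, adjusted p = 0.0159) and the diacylglycerol kinase genes Dgka (-0.77, adjusted p = 0.0146) and Dgkz (-0.19, adjusted p = 0.0464) fell in Cul5 cKO cells and none rose. Over all genes, 5.89% fell and 7.17% rose in that fit. Of 12 upstream factors, 3 were lower in replicate 1 (Nfatc1 at -0.63, Elk4 at -0.38 and Srf at -0.34) and 1 was higher (Crem at 0.78). The most abundant NFAT gene, Nfatc3 (-0.14), did not pass. Elk4 (-0.31) and Creb1 (-0.23) fell in Cul5 cKO cells with the term, and none passed without it (1, Creb1, at an unadjusted p under 0.05, and 0 in DESeq2).

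Later genes of activation went both ways in replicate 1, with 7 of 12 lower and 2 higher. Il2, the autocrine growth factor gene, was at 0.171, 4.54 and 3.54 CPM in WT and at 0.0869, 8.59 and 6.76 CPM in Cul5 cKO cells (log2 -5.41, adjusted p = 0.00107), with replicate 1 at 4 and 2 counts. Ifng (-3.82), Irf8 (-1.30), Tnf (-1.14), Cd44 (-0.72), Irf4 (-0.54) and Tnfrsf4 (-0.42) were lower too, and the fitted values of Il2 and Ifng, like that of Egr4, rest on 0 to 4 counts in replicate 1 and depend on the prior count of the fit. Icos (0.43) and Tfrc (0.31) were higher, and Il2ra, which encodes the IL-2 receptor alpha chain, was at 1591, 1431 and 1388 CPM in WT and at 1823, 1508 and 1708 CPM in Cul5 cKO cells (log2 0.18, adjusted p = 0.108). None of the 12 passed between genotypes without the term (1.03% of all genes tested did) or in DESeq2 (693 of 12925 genes did). At an unadjusted p under 0.05 there were 2 (Tnfrsf4 and Tnfrsf9), where 21.3% of all genes passed that. With the term 4 rose (Tnf, Irf8, Tnfrsf4 and Irf4) and Tnfrsf9 fell, where 7.17% of all genes rose and 5.89% fell.

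Heat shock genes did not pass in replicate 1 for any of the 6 tested of 7. The lowest adjusted p was 0.176, 1 gene had an unadjusted p under 0.05, and DESeq2 called 0. The most abundant, Hspa8, was at 3533, 3690 and 3529 CPM in WT and at 3803, 4319 and 4660 CPM in Cul5 cKO cells. Hspa1a (0 to 17 counts), Hspa1b (9 to 61 counts) and Hspb1 (0 to 4 counts, not tested) rested on few counts in all libraries. Between genotypes none of the 6 passed without the term, where 1.03% of all genes tested did. At an unadjusted p under 0.05 there were 3, where 21.3% of all genes passed that, and DESeq2 called Hsph1. With the term the chaperone genes Hsph1 (0.41, adjusted p = 0.0202) and Hspa8 (0.24, adjusted p = 0.0377) rose, where 7.17% of all genes rose.

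Of the 26 genes of the 6 lists that passed between genotypes with the replicate 1 term, 16 also passed in replicates 2 and 3 alone. The 10 that did not were Maff, Myc, Klf6, Ier5, Csrnp1, Dgkz, Creb1, Irf4, Irf8 and Hsph1, with adjusted p-values from 0.0508 (Hsph1) to 0.0822 (Ier5) in edgeR's test there.

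**Figure D5:**
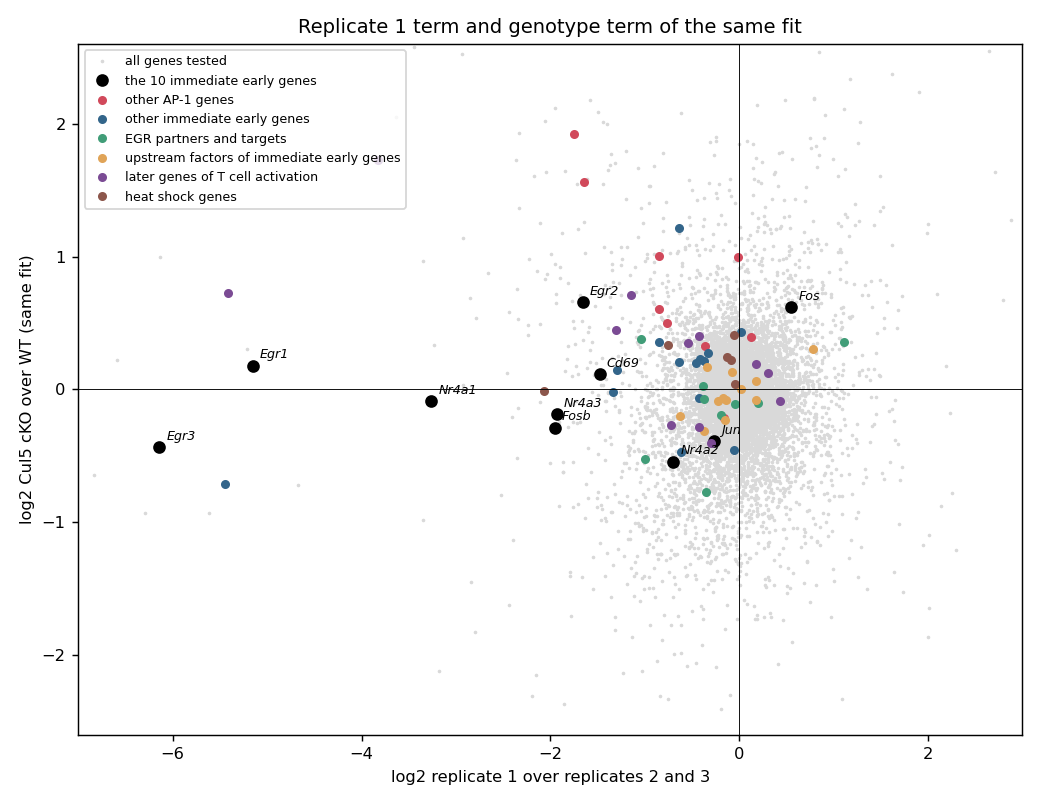
Fitted log2 difference of replicate 1 from replicates 2 and 3 (x axis) against the log2 fold change of Cul5 cKO over WT from the same fit (y axis), for the 10 genes (black, named), 6 lists (colours) and all genes tested (grey, of which 38 lie outside the axes). Egr3, Egr1 and Nr4a1 lie far to the left at genotype values of -0.44, 0.18 and -0.086, while the other AP-1 genes lie mostly above it.

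The other measured properties of replicate 1 stand beside these results. Its 2 libraries held 23225640 counts (WT) and 23404769 counts (Cul5 cKO), against 23111689 in WT replicate 2, so they were not the shallow ones. The 6 T cell markers summed to 1418 to 1535 CPM in replicate 1 and to 1506 to 1630 CPM in replicates 2 and 3, and 1 of the 6, Trac, was lower in replicate 1. The sum of 6 B cell markers ranged from 42.2 to 113 CPM in replicate 1 and from 35.5 to 121 CPM in the others. That of 6 myeloid markers was 5.39 to 6.11 CPM against 5.56 to 14.4 CPM, with Cd14 at or under 3 counts in every library. The 2 CD8 markers summed to 4.30 to 5.76 CPM against 6.33 to 11.6 CPM, 4 NK cell markers to 4.18 to 6.04 CPM against 9.11 to 13.1 CPM, and 4 dendritic cell markers to 1.54 to 1.78 CPM against 1.77 to 4.38 CPM. Nearly all of the NK cell sum was Eomes, a factor that activated T cells can also express, at 4.01, 9.47 and 8.86 CPM in WT and at 5.82, 13.0 and 10.2 CPM in Cul5 cKO cells, and it was lower in replicate 1 (log2 -1.09, adjusted p = 0.00761). The NK cell marker Ncr1 was at 0 counts and Klrb1c at or under 3 counts in every library. The part of these differences in the low values of replicate 1 was not tested. In bulk RNA fewer cells with a transcript and less of it per cell cannot be told apart. No sample label names a day, litter or batch for the replicate numbers. The study describes its RNA-seq of both genotypes as 1 experiment.

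Outside the 10, the genes most like their mean profile (standardized log2 CPM over the 6 libraries) were Phf13, Slc38a2, Atp11a, Mta1 and Fam208b. Their Pearson correlations ran from 0.992 to 0.998, among 8687 genes that averaged 10 CPM or more, list genes included. With 6 points that fall into replicate 1 and the rest, such a value mainly orders genes by that split. Each of the 10 genes is part of the mean profile, which raises its own correlation. Of the 10 genes, Nr4a1 (0.988), Egr3 (0.987), Nr4a3 (0.985), Egr1 (0.984), Cd69 (0.984) and Fosb (0.963) lay close to their own mean. Egr2 (0.875), Nr4a2 (0.780) and Jun (0.586) did so less, and Fos (-0.476) ran the other way. Phf13 moved far less than the 10 genes, from 12.8 CPM in both replicate 1 libraries to between 18.7 and 20.7 CPM in the others.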

How the data were processed

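Poly-A RNA was sequenced by the authors in single-end reads of 50 bp, and reads were assigned to transcripts of GRCm38 with kallisto 0.46.2 (versions from the submitters' processing notes). The deposited files give estimated counts and TPM per transcript for each library, and the authors' gene-level table gives TMM-normalized log2 CPM (edgeR 3.34.0). Its columns of fold changes and p-values were not used. GENCODE vM21 matched 97.7% of 119414 transcripts. Estimated counts were summed by gene, rounded, filtered and TMM-normalized, and tested with edgeR 4.0.16 (quasi-likelihood, Benjamini-Hochberg, adjusted p under 0.05) in R 4.3.3, over 12925 genes. Genotype was fitted alone, with a replicate 1 term, and with their interaction. The coefficient of variation between replicates was 16.1% with genotype alone and 10.1% with the replicate 1 term. Alternatives used DESeq2 1.42.0, limma 3.58.1, other filters, scalings and inputs, log2(TPM + 1) and log2(TPM + 0.1) included, libraries thinned to the smallest, a replicate block, and each library left out. The scripts were tested on simulated data. The genes, the lists and the replicate 1 contrast were chosen with earlier results of these data known. The named genes are the 10, Cul5, members of the 6 pathway lists whose replicate 1 or genotype term passed, up to 4 abundant members per such list and the 5 of most similar profile. A gene that this rule names is not reported here. Remaining genes of a list, and those named from the marker lists, were chosen after their values were seen.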

Additional observations from a re-analysis of the deposited data

How the results depend on the processing

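None of the 10 genes passed between genotypes in edgeR with genotype alone, and 0 passed with any single library left out. The count was 1 at an unadjusted p under 0.05, 2 with the replicate 1 term and 1 in replicates 2 and 3 alone. Genes of the 6 lists that passed numbered 0 of 62, and 16, 26 and 17 under those 3 settings, 6 in DESeq2, 2 without a filter, 1 with libraries thinned to the smallest, and 0 to 1 with a library left out (1 without WT replicate 1). Over all genes the count was 133, against 693 in DESeq2, 1688 with the replicate 1 term and 1153 in replicates 2 and 3 alone. With a replicate block 2 of the 10 genes (Egr2 at 0.69 and Jun at -0.38), 15 list genes and 848 of all genes passed. Of the 26 list genes that passed with the replicate 1 term, Batf3, Mafk, Ier5, Csrnp1, Dgkz, Elk4, Creb1, Tnfrsf9, Irf4, Irf8 and Hspa8 did not pass with the block, at adjusted p-values from 0.0501 (Mafk, Irf8) to 0.103 (Dgkz). Same-numbered libraries correlated by 0.370, 0.206 and 0.0245 in their deviations from the group means, and unlike-numbered ones by -0.333 to 0.201. The third value includes WT replicate 3, the shallow library. These values cannot decide whether the numbers are pairs, and the main fit did not take them as pairs.

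With a library left out, log2 fold changes between genotypes ran from -0.37 (without WT replicate 1) to 1.04 (without WT replicate 2) for Egr1 and, without the same libraries, from -0.22 to 0.66 for Cd69, from -0.93 to 0.53 for Egr3, from -0.72 to 0.52 for Nr4a1 and from -0.91 to 0.34 for Fosb. Nr4a3 ran from -0.48 (without WT replicate 1) to 0.35 (without Cul5 cKO replicate 1). Each of these 6 changed sign and none passed. The interaction changed sign for Egr1 (-0.18), Fosb (-0.32) and Jun (-0.32) in thinned libraries and for Cd69 (-0.011) in DESeq2. The cause of these changes was not tested. The count of 7 genes lower in replicate 1 ranged from 6 to 8 over 13 alternatives, and Egr1, Egr2, Egr3, Nr4a1, Nr4a3 and Cd69 passed in each. Fos, Fosb and Nr4a2 rested on few counts, 8 to 28 in WT replicate 3. Fosb was also at 13 (WT) and 18 (Cul5 cKO) counts in the deeper replicate 1 libraries.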

Other observations

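For a few of the 10 genes the authors' gene-level table was closer to 1 transcript than to the sum over the gene. Its CPM for Nr4a1, taken back from log2, was 1.04 to 1.11 times that of ENSMUST00000023779 alone in the 6 libraries and 0.275 to 0.928 times the sum over the gene, with the lowest ratio in a replicate 1 library. For Egr3 it was 0.0892 to 0.123 times the sum, and for Cd69, the other gene with ratios under 1 throughout, 0.80 to 0.971 times. For Egr1 it was 1.07 to 1.14 times the sum. In that table the log2 difference of replicate 1 from the mean of replicates 2 and 3 was -5.03 in WT and -4.66 in Cul5 cKO cells for Nr4a1, against -3.51 and -3.01 from the summed counts. Which transcripts the table combined is not given in the sources used here.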
